A study of Mus musculus with 5 samples.

Results

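The transcripts of 8 chemokine receptor genes, *Ccr2*, *Ccr4*, *Ccr7*, *Ccr8*, *Ccr9*, *Cxcr3*, *Cxcr4* and *Cxcr6*, were followed in CD4 single positive (CD4 SP) thymocytes. The genes were chosen by symbol among the 55487 gene identifiers counted, with earlier results of these data known. All 8 passed the filter on low counts that left 13525 genes for testing. RNA-seq libraries came from sorted thymocytes of 3 wild type (WT) mice and of 2 mice of the genotype Tet2-/-Tet3flx/flxCD4cre (*Tet2/3* DKO), all on the C57BL/6J background, between 21 and 30 days old, with 1 library per mouse. Both groups were depleted of CD24 high cells and sorted as live CD4+ TCRb+ CD8- cells that did not bind the aGalCer-loaded CD1d tetramer, to a purity above 98%. The *Tet2* deletion is present in every cell of the DKO mice, whereas *Tet3* is deleted by a Cre recombinase driven by *Cd4*, which is active from the double positive (DP) stage of thymocyte development. TET proteins are dioxygenases that oxidize 5-methylcytosine and so promote DNA demethylation. The question was how their loss in developing T cells changed the levels of the receptors that guide thymocytes.

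Chemokine receptors are seven-transmembrane proteins that bind small secreted chemokines and signal through inhibitory G proteins to direct cell migration. In the thymus, CXCR4 retains immature cells in the cortex, CCR9 responds to CCL25 made by the epithelium, and CCR4 and CCR7 guide positively selected cells into the medulla. CXCR3, CXCR6 and CCR2 are better known from effector, memory and innate-like T cells, which they direct to inflamed tissue.

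The libraries held between 17607089 and 27267031 reads assigned to genes, with the smaller totals in the *Tet2/3* DKO libraries (21371743 and 17607089). Reads outside annotated genes made up 5.70% of *Tet2/3* DKO replicate 1 and 3.51% to 3.72% of the other libraries. *Tet3* had 1133, 1082 and 1440 counts in WT against 419 and 235 in *Tet2/3* DKO (log2 fold change -1.50, edgeR adjusted p = 0.00121, and 0.0154 at most with one WT library left out). *Tet2* had 1355, 1286 and 1585 counts in WT against 1919 and 1048 in *Tet2/3* DKO (log2 fold change 0.46, edgeR adjusted p = 0.135), and counts over the whole gene do not test the deleted allele. The library labelled *Tet2/3* DKO replicate 1 is given as male but had 744 counts of *Xist* and 7 counts over 4 Y-linked genes, whereas the library labelled WT replicate 1 is given as female but had 0 and 6821. The methods of the study give the mice of both groups as male. The remaining 3 libraries, all labelled male, had 0 to 2 *Xist* counts and 5101 to 7041 Y-linked counts. Results are therefore also given with each library left out. All 9 CD4 SP markers were detected. Their summed level was 14250 to 15140 CPM (counts scaled to library size) in WT and 14920 and 13090 CPM in *Tet2/3* DKO. *Cd5* and *Cd4* among the 9 fell, against 1.5% of all genes tested. *Cd4* had an edgeR adjusted p of 0.0095 that was 0.0419, 0.0364 and 0.0203 without WT replicate 1, 2 and 3.

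DNA sequences at the starts of receptor genes that changed between the genotypes are shown because TET proteins act on cytosines followed by guanine. Methylation was not measured in these libraries, so the sequences are descriptive. Each covers the 250 bases before and 50 bases after the RefSeq start (GRCm38.p6), is written 5′ to 3′ along the gene's strand, and has every CG in capitals. *Cxcr3* lies on the minus strand at chrX:101734098-101734397, *Cxcr6* on the plus strand at chr9:123806227-123806526, *Ccr2* on the plus strand at chr9:124101933-124102232, *Ccr4* on the minus strand at chr9:114496495-114496794 and *Ccr8* on the plus strand at chr9:120091883-120092182.
Cxcr3: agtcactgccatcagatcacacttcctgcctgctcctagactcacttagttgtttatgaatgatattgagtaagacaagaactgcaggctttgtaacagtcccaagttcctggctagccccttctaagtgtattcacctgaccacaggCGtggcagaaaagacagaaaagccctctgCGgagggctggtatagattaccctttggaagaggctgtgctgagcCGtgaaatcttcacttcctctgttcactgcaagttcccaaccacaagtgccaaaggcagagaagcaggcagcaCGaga
Cxcr6: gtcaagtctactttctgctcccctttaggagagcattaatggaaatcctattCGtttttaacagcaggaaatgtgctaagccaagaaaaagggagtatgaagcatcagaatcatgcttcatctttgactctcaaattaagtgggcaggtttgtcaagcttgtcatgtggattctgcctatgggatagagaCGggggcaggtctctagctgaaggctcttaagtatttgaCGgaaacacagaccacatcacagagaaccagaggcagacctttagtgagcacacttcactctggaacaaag
Ccr2: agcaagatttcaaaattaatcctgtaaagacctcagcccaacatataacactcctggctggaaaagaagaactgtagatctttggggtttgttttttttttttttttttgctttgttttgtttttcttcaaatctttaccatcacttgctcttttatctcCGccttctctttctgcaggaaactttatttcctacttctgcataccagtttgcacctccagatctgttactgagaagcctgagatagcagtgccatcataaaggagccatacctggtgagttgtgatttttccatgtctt
Ccr4: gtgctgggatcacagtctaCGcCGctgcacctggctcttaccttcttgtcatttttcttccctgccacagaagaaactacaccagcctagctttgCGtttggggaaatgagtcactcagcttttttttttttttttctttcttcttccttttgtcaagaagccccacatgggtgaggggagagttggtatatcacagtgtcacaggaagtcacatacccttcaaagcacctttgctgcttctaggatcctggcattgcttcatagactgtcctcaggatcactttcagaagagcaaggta
Ccr8: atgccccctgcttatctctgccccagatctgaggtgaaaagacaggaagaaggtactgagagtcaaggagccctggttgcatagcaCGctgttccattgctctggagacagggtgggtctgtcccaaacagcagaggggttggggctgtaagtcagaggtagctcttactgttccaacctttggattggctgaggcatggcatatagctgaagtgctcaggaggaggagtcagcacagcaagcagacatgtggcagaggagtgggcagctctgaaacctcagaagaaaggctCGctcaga

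These 5 promoters were poor in CG. *Cxcr3* had 4 CG, *Cxcr6* and *Ccr4* had 3 each, *Ccr8* had 2 and *Ccr2* had 1, against a median of 7 over the 32851 promoters of the RefSeq table. A count of 4 or fewer was found in 38% of all promoters and a count of 1 or fewer in 14.1%. *Ccr9* also had 4 CG, whereas *Cxcr4* had 20, and 75.2% of promoters had no more than that. Sequences were found for 7 of the 8 genes, all except *Ccr7*. The letters TCACAC, part of the site bound by T-box factors, were found on either strand in 14.5% of all promoters and once in *Cxcr3*. The letters TGTGGT, bound by RUNX factors, were found in 16.8% of promoters, with 2 matches in *Cxcr3* and 1 in *Cxcr6*. The letters AGATAA, bound by GATA factors, were found in 11.2% of promoters, with 1 match each in *Ccr2* and *Ccr8*. None of the searched words contains another, and *Ccr4*, *Ccr9* and *Cxcr4* held none of them in this window.

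Of the 8 receptors, 6 changed between the genotypes at an adjusted p-value of 0.01. *Cxcr3*, *Cxcr6*, *Ccr2* and *Ccr4* rose in *Tet2/3* DKO CD4 SP cells, *Ccr7* and *Ccr8* fell, and *Ccr9* and *Cxcr4* did not pass the test. Across all 13525 genes tested, 3.92% were called in either direction, 2.42% higher and 1.5% lower. The 2 *Tet2/3* DKO libraries lay both above or both below all 3 WT libraries for 7 of the 8 receptors, and for 39.1% of all genes tested. The median log2 fold change was 1.36 over the 8 receptors and 0.01 over all genes tested. The 8 were chosen with earlier results of these data known, so these shares do not test them as a group. These are RNA levels of a sorted population, in which fewer cells that express a receptor and less RNA per cell cannot be told apart.

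**Figure D1:**
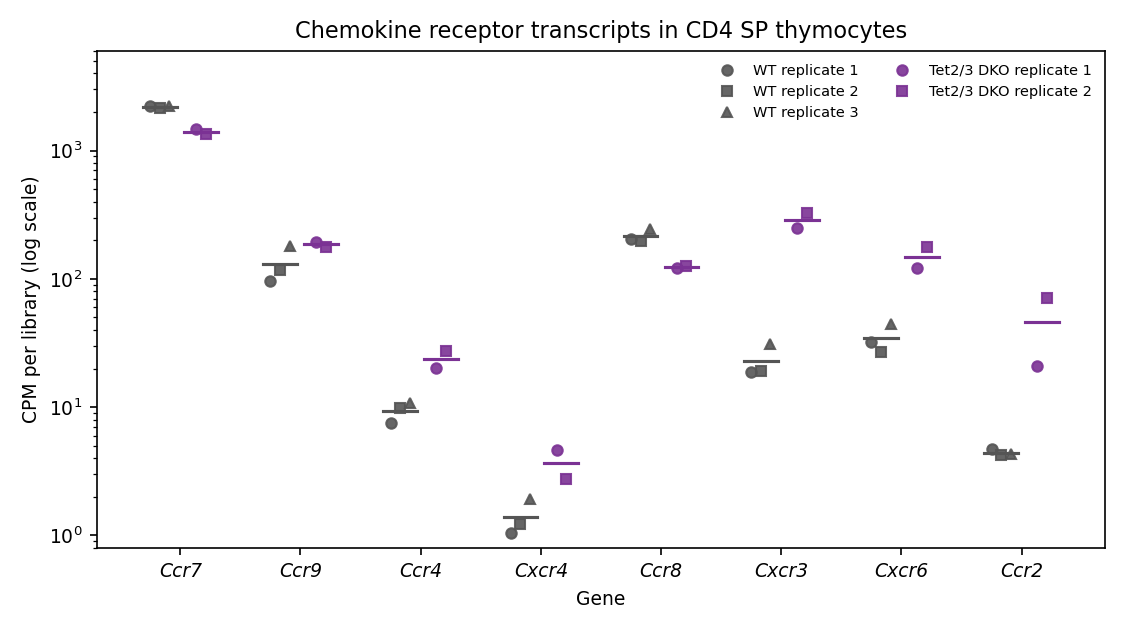
Level of each of the 8 receptor transcripts in every library, in CPM on a log axis, with WT libraries in grey, *Tet2/3* DKO libraries in purple and horizontal bars at the group means. *Cxcr3* lies at 18.6 to 31.2 CPM in WT and at 247.3 and 323.8 CPM in *Tet2/3* DKO, and *Ccr9* is the one receptor whose groups overlap.

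Among the receptors of effector cells, *Cxcr3* had the largest log2 fold change of the 8 in the fit of all 5 libraries. *Cxcr3* (ENSMUSG00000050232, minus strand of chromosome X, 101731535 to 101734269 in GRCm38) encodes the receptor for CXCL9, CXCL10 and CXCL11. It had 482, 455 and 856 counts in the WT libraries and 5187 and 5787 counts in the *Tet2/3* DKO libraries. Both *Tet2/3* DKO libraries were far above every WT library, although they were sequenced less deeply. The mean level was 23.0 ± 7.10 CPM (SD, n = 3) in WT and 285.5 ± 54.1 CPM (SD, n = 2) in *Tet2/3* DKO, a 12.4-fold increase (log2 fold change 3.63 ± 0.21 SE, edgeR adjusted p = 2.27e-05). *Cxcr3* is X-linked, and its level was 247.3 CPM in the *Xist*-positive library and 323.8 CPM in the other *Tet2/3* DKO library. Without the *Xist*-positive library the log2 fold change was 3.81 (edgeR adjusted p = 5.2e-11). In this and every other fit that leaves out a *Tet2/3* DKO library, the lone remaining one is assumed to vary like the WT libraries. *Cxcr3* remained past the threshold in each of 5 fits that left out 1 library.

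*Cxcr6* (ENSMUSG00000048521, plus strand of chromosome 9, 123806475 to 123811760), the receptor for CXCL16, rose as well. It had 831, 641 and 1210 counts in WT against 2527 and 3185 counts in *Tet2/3* DKO. The lower *Tet2/3* DKO library stood at 120.5 CPM and the highest WT library at 44.1 CPM. The mean went from 34.4 ± 8.77 CPM (SD, n = 3) to 149.3 ± 40.8 CPM (SD, n = 2), which is 4.32-fold (log2 fold change 2.11 ± 0.21 SE, edgeR adjusted p = 0.000457). The call held with each library left out, with log2 fold changes of 1.79 to 2.37 and an adjusted p of 0.00915 at most. The gene lies inside the body of *Fyco1*, which is on the opposite strand, and shares no exon base with it. The counts do not use strand, so reads from unspliced *Fyco1* RNA over the exons of *Cxcr6* cannot be told apart.

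*Ccr2* (ENSMUSG00000049103, plus strand of chromosome 9, 124101950 to 124113557) encodes a receptor for CCL2, CCL7 and CCL12 that is abundant on monocytes and also found on memory and innate-like T cells. It was close to uniform in WT, with 122, 100 and 118 counts, but had 437 and 1270 counts in *Tet2/3* DKO. The *Tet2/3* DKO libraries therefore differed from each other, with 20.8 CPM in replicate 1 and 71.1 CPM in replicate 2, a ratio of 3.41. Both were above the WT mean of 4.41 ± 0.270 CPM (SD, n = 3), and the *Tet2/3* DKO mean was 45.9 ± 35.5 CPM (SD, n = 2). The log2 fold change was 3.36 ± 0.46 SE (edgeR adjusted p = 0.00225), or 10.3-fold. Leaving out *Tet2/3* DKO replicate 1 gave 4.01, and leaving out replicate 2 gave 2.22. The adjusted p was 0.0154, 0.0333 and 0.0297 without WT replicate 1, 2 and 3, and 0.0674 with edgeR's robust moderation.

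Myeloid and dendritic cell markers, 8 genes of which none was at 0 in all 5 libraries and 2 had at most 3 counts in every library, summed to 7.47 to 13.4 CPM in WT and to 23.1 and 50.8 CPM in *Tet2/3* DKO replicates 1 and 2, the same order as *Ccr2*. None of the 4 that were tested passed the threshold in edgeR or DESeq2, and 3 had an unadjusted p under 0.05 in edgeR, as did 23% of all genes tested. Their part in the *Ccr2* result was not tested. *Lyz2*, the lysozyme of macrophages, stood at 5.83 to 10.8 CPM in WT and 18.6 and 42.5 CPM in *Tet2/3* DKO (log2 fold change 1.76, edgeR adjusted p = 0.0143). 

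Of 7 markers of innate-like T and NK cells, 5 rose, as *Cxcr3*, *Cxcr6* and *Ccr2* did, against 2.42% of all genes tested. This list, like the others, was chosen with earlier results of these data known. The 7 markers were all detected and summed to 235.9 to 258 CPM in WT and to 558.8 and 929.7 CPM in *Tet2/3* DKO. *Nkg7*, a cytotoxic granule protein, made up most of the rise in the sum and went from 30.4 ± 6.16 CPM (SD, n = 3) to 408.2 ± 160.7 CPM (SD, n = 2). *Zbtb16*, which encodes the PLZF factor of innate-like T cells, had 32, 13 and 24 counts in WT against 251 and 253 counts in *Tet2/3* DKO (log2 fold change 3.85, edgeR adjusted p = 8.57e-05). *Klrd1*, *Klrb1c* and *Ncr1*, all receptors of NK cells, were the other 3 that rose, and their adjusted p reached 0.0154, 0.0497 and 0.0153 with a WT library left out. *Il2rb*, a cytokine receptor chain, made up most of the WT sum, at 197.6 to 223.5 CPM, and overlapped between the groups (edgeR adjusted p = 0.148). *Tbx21*, the T-box factor T-bet, did not pass in edgeR (adjusted p = 0.019) but did in DESeq2. The sort excluded cells that bound the CD1d tetramer, and the part of these markers in the receptor results was not tested.

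Among the receptors of thymic maturation and homing, *Ccr7* and *Ccr8* fell in *Tet2/3* DKO cells. *Ccr7* (ENSMUSG00000037944, minus strand of chromosome 11, 99144196 to 99155077) is the receptor for CCL19 and CCL21, which draws positively selected thymocytes to the medulla. It was the most abundant of the 8 per exon length in every library. It had 57366, 51267 and 60928 counts in WT against 30829 and 23882 in *Tet2/3* DKO. After scaling to library size the WT libraries lay within 2160 to 2220 CPM, and both *Tet2/3* DKO libraries were lower, at 1470 and 1336 CPM. The mean was 2200 ± 34.3 CPM (SD, n = 3) in WT and 1403 ± 94.4 CPM (SD, n = 2) in *Tet2/3* DKO, 1.57-fold higher in WT (log2 fold change -0.65 ± 0.081 SE, edgeR adjusted p = 0.00153). The log2 fold change was -0.72 to -0.60 when 1 library was left out, and the adjusted p was 0.0165, 0.0168 and 0.018 without WT replicate 1, 2 and 3.

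*Ccr8* (ENSMUSG00000042262, plus strand of chromosome 9, 120092114 to 120094906), a receptor for CCL1 and CCL8 that is found on regulatory and type 2 helper T cells, had 5299, 4694 and 6674 counts in WT against 2565 and 2235 counts in *Tet2/3* DKO. The *Tet2/3* DKO libraries were nearly equal at 122.3 and 125 CPM, below the lowest WT library at 197.8 CPM. The mean fell from 215.3 ± 24.4 CPM (SD, n = 3) to 123.7 ± 1.95 CPM (SD, n = 2), 1.74-fold higher in WT (log2 fold change -0.80 ± 0.11 SE, edgeR adjusted p = 0.00225). Without WT replicate 1, 2 or 3 the adjusted p was 0.0147, 0.0132 and 0.0127.

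*Ccr4* (ENSMUSG00000047898, minus strand of chromosome 9, 114490316 to 114504916), the receptor for CCL17 and CCL22 that is found on recently selected thymocytes, regulatory and type 2 helper T cells, rose. It had 196, 234 and 294 counts in WT against 422 and 487 in *Tet2/3* DKO. No WT library exceeded 10.7 CPM, whereas the *Tet2/3* DKO libraries reached 20.1 and 27.3 CPM. The mean was 9.39 ± 1.62 CPM (SD, n = 3) in WT and 23.7 ± 5.04 CPM (SD, n = 2) in *Tet2/3* DKO, a 2.51-fold increase (log2 fold change 1.33 ± 0.20 SE, edgeR adjusted p = 0.00345). Without WT replicate 1, 2 or 3 the adjusted p was 0.0241, 0.0333 and 0.0213.

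The 6 regulatory T cell markers, none at 0, summed to 749.8 to 941.3 CPM in WT and to 371.9 and 605.6 CPM in *Tet2/3* DKO. *Foxp3*, the factor that defines these cells, was the one marker of the list that passed in edgeR, where 1.5% of all genes tested were called lower. It fell from 52.3 ± 7.09 CPM (SD, n = 3) to 21.1 ± 4.53 CPM (SD, n = 2), a log2 difference of -1.31 (edgeR adjusted p = 0.00191, and 0.0203 and 0.0208 without WT replicate 2 and 3). Counted on the second strand alone its log2 fold change was -0.70. *Tnfrsf4*, a costimulatory receptor, made up most of the difference in the sum, at 402.6 to 526.4 CPM in WT and 107.3 and 304.8 CPM in *Tet2/3* DKO (edgeR adjusted p = 0.0689). *Tnfrsf18*, a related receptor, was at 185.3 to 243.8 CPM in WT and 161.1 and 147 CPM in *Tet2/3* DKO (edgeR adjusted p = 0.0394) and was called by DESeq2. *Il2ra*, *Ctla4* and *Ikzf2* overlapped between the groups, with log2 fold changes of -0.52, 0.09 and 0.37. The part of these markers in the *Ccr8* and *Ccr4* results was not tested.

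*Ccr9* and *Cxcr4* did not pass the threshold. *Ccr9* (ENSMUSG00000029530, plus strand of chromosome 9, 123678439 to 123784330), the receptor for CCL25, stood at 95.6, 116.9 and 179.6 CPM in WT and at 194.6 and 178.1 CPM in *Tet2/3* DKO. WT replicate 3 was as high as the *Tet2/3* DKO libraries, so that the groups overlapped. The log2 fold change was 0.51 ± 0.22 SE (edgeR adjusted p = 0.197). Without WT replicate 1, 2 and 3 it was 0.33, 0.435 and 0.81 (edgeR adjusted p = 0.449, 0.452 and 0.0203). Other annotated genes share 21.5% of the exon bases of *Ccr9*, and reads there cannot be assigned with certainty. No exon base was shared in any of the other 7 receptor genes.

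*Cxcr4* (ENSMUSG00000045382, minus strand of chromosome 1, 128588199 to 128592293), the receptor for CXCL12, was low, with 27, 29 and 53 counts in WT against 97 and 49 counts in *Tet2/3* DKO. Once scaled, the *Tet2/3* DKO levels of 4.62 and 2.74 CPM did not overlap the WT levels, which reached 1.93 CPM. The log2 fold change of 1.40 ± 0.37 SE did not pass the threshold (edgeR adjusted p = 0.0503), and it passed without *Tet2/3* DKO replicate 2 (1.69, edgeR adjusted p = 0.00374). The 7 markers of CD8 and DP thymocytes, of which *Rag1* was at 0 in every library, summed to 96.9 to 114.9 CPM in WT and 54.8 and 56.5 CPM in *Tet2/3* DKO, but its members did not all move one way. *Cd8b1*, a chain of the CD8 co-receptor, fell and made up most of the sum, at 65.9 to 71.7 CPM in WT and 28.6 and 27.1 CPM in *Tet2/3* DKO. *Cd8a*, the other chain, was at 2.71 to 5.39 CPM in WT and 5.77 and 8.67 CPM in *Tet2/3* DKO (log2 fold change 0.94, edgeR adjusted p = 0.128). The part of these markers in the *Ccr9* and *Cxcr4* values was not tested.

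**Figure D2:**
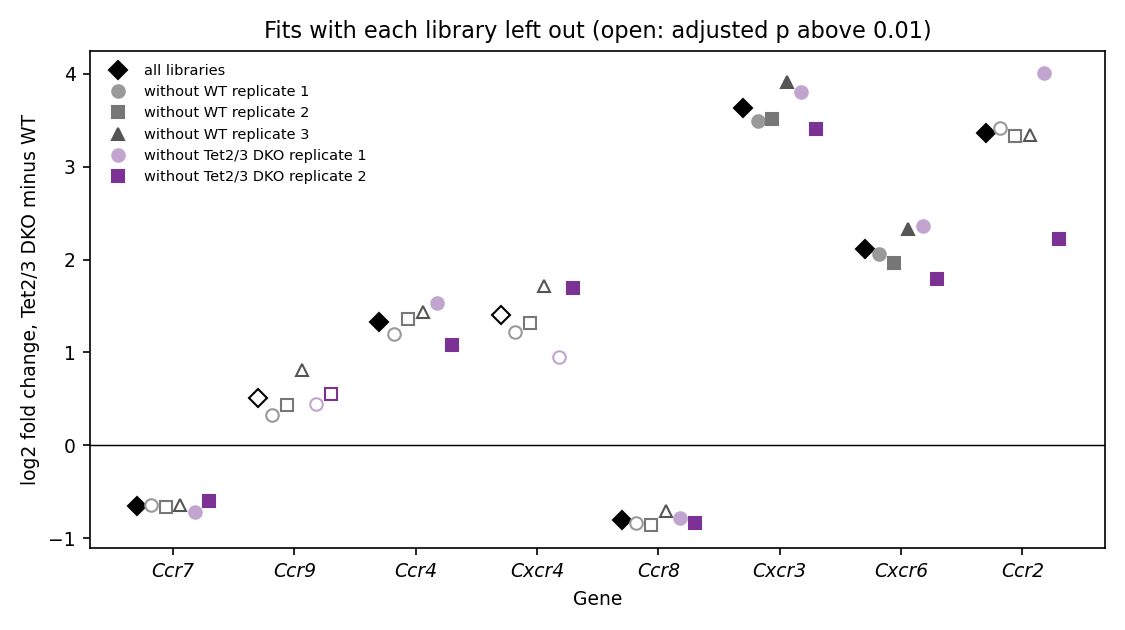
Log2 fold change (*Tet2/3* DKO minus WT) of the 8 receptors in the fit of all 5 libraries and in 5 fits that leave out 1 library each, with filled symbols where the adjusted p is at most 0.01. *Cxcr3* and *Cxcr6* are filled throughout, *Ccr7*, *Ccr8*, *Ccr4* and *Ccr2* are open in the 3 fits without a WT library, and none of the 8 changes sign.

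The receptors also differed in how closely the libraries of 1 genotype agreed. Within *Tet2/3* DKO, the ratio of the higher to the lower CPM was 3.41 for *Ccr2*, 1.69 for *Cxcr4*, 1.48 for *Cxcr6*, 1.35 for *Ccr4*, 1.31 for *Cxcr3* and 1.02 to 1.1 for *Ccr8*, *Ccr9* and *Ccr7*. Within WT, the ratio of highest to lowest CPM was 1.88 for *Ccr9*, 1.85 for *Cxcr4*, 1.67 for *Cxcr3*, 1.63 for *Cxcr6* and 1.03 for *Ccr7*. WT replicate 3 had the highest CPM of the WT libraries for 7 of the 8 receptors, with *Ccr2* as the exception.

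To compare levels between receptors, CPM were divided by the length of all annotated exons, which gives RPKM (CPM per kilobase of exon). In WT the mean levels were 1112 RPKM for *Ccr7*, 183.2 for *Ccr8*, 17.8 for *Cxcr6*, 13.3 for *Cxcr3*, 12.7 for *Ccr9*, 3.03 for *Ccr4*, 0.774 for *Cxcr4* and 0.653 RPKM for *Ccr2*. The WT libraries of *Cxcr6* and *Cxcr3*, of *Cxcr3* and *Ccr9*, and of *Cxcr4* and *Ccr2* overlapped in range. In *Tet2/3* DKO the mean levels were 709.3 RPKM for *Ccr7*, 164.9 for *Cxcr3*, 105.2 for *Ccr8*, 77.3 for *Cxcr6*, 18.2 for *Ccr9*, 7.66 for *Ccr4*, 6.80 for *Ccr2* and 2.04 RPKM for *Cxcr4*. *Cxcr3* thus stood second, above *Ccr8*, in both *Tet2/3* DKO libraries, and *Ccr4* and *Ccr2* overlapped. The place of *Ccr9* depends on its long annotated exons, which include the 21.5% of bases shared with other genes. With the median length of its coding transcripts it was 43.5 RPKM in WT, above *Cxcr6*, and 62 RPKM in *Tet2/3* DKO, overlapping *Cxcr6*. With that length *Ccr4* was 6.79 RPKM in WT and 17.1 in *Tet2/3* DKO, and *Ccr2* was 1.35 RPKM in WT and 14.1 in *Tet2/3* DKO.

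*Ccr7* made up most of the chemokine receptor RPKM in all libraries, but less of it in *Tet2/3* DKO. Over the 23 chemokine receptor genes listed here the summed level was 1348, 1314 and 1406 RPKM in WT and 1096 and 1125 RPKM in *Tet2/3* DKO. *Ccr7* accounted for 83.2%, 83.1% and 79.8% of it in WT and for 67.8% and 60% in *Tet2/3* DKO. *Cxcr3* accounted for 0.799%, 0.843% and 1.28% in WT and for 13% and 16.6% in *Tet2/3* DKO. The RPKM ratio of *Ccr7* to *Cxcr3* was 104.2, 98.6 and 62.3 in WT and 5.20 and 3.61 in *Tet2/3* DKO, with no overlap. In contrast, the RPKM ratio of *Ccr7* to *Ccr8*, which fell together, was 6.43, 6.49 and 5.42 in WT and 7.14 and 6.35 in *Tet2/3* DKO, and the groups overlapped. *Cxcr6* was above *Cxcr3* in every WT library, with RPKM ratios of 1.26 to 1.55, and below it in *Tet2/3* DKO, at 0.437 and 0.493.

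**Figure D3:**
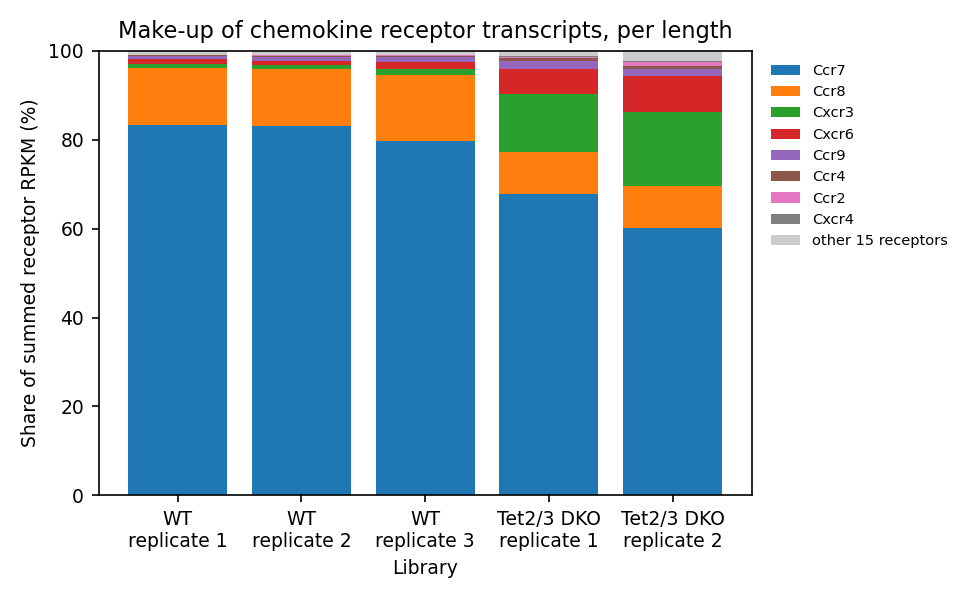
Share of the summed RPKM of 23 chemokine receptor genes taken by each of the 8 receptors and by the other 15 together, in percent, 1 bar per library. *Ccr7* takes 79.8% to 83.2% of each WT bar and 67.8% and 60% of the *Tet2/3* DKO bars, where *Cxcr3* and *Cxcr6* widen.

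Another 15 chemokine receptor genes were examined to place the 8 among them, and 6 passed the filter. *Ccr10* rose, *Ccr6* fell and 4 did not pass the test, and the 2 groups did not overlap for any of the 6, as for 39.1% of all genes tested. *Ccr10*, a receptor of skin-homing T cells, had 12, 32 and 28 counts in WT against 181 and 287 in *Tet2/3* DKO (log2 fold change 3.70 ± 0.41 SE, edgeR adjusted p = 0.000859, and 0.0124 and 0.0139 without WT replicate 2 and 3). Without *Tet2/3* DKO replicate 2, the higher of the pair, its log2 fold change was 3.18.

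*Ccr6*, the receptor for CCL20, fell from 478, 494 and 566 counts in WT to 80 and 87 in *Tet2/3* DKO (log2 fold change -2.21 ± 0.19 SE, edgeR adjusted p = 0.000206), and it stayed past the threshold with each library left out. *Cxcr5*, the receptor of follicular helper T cells, had 71, 112 and 120 counts in WT against 107 and 454 in the *Tet2/3* DKO libraries (log2 fold change 1.91, edgeR adjusted p = 0.0724). That value rests on *Tet2/3* DKO replicate 2, without which it was 0.36 (edgeR adjusted p = 0.49), and without *Tet2/3* DKO replicate 1 it was 2.69 (edgeR adjusted p = 1.08e-07). *Cx3cr1*, *Xcr1* and *Ccrl2* had log2 fold changes of 1.58, 1.47 and 0.85 and edgeR adjusted p-values of 0.0555, 0.0341 and 0.0561, and *Cx3cr1* passed without *Tet2/3* DKO replicate 1 (2.04, edgeR adjusted p = 0.00174) and was 0.99 without replicate 2. Of the 9 that were not tested, 5 had at most 3 counts in every library, and *Ccr1* had 0, 1 and 3 counts in WT against 2 and 74 in *Tet2/3* DKO. Among the 23 receptor genes listed, 14 were tested, 5 rose and 3 fell, against 2.42% and 1.5% of all genes tested.

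**Figure D4:**
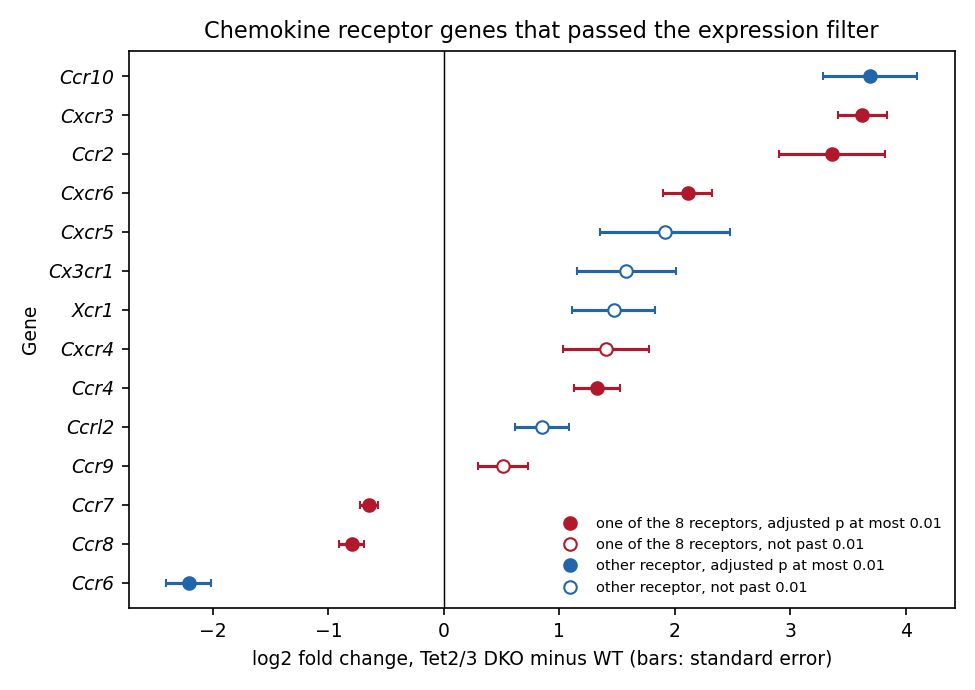
Log2 fold change (*Tet2/3* DKO minus WT) with its standard error for the 14 listed chemokine receptor genes that passed the filter, the 8 receptors described here in red and others in blue, filled where the adjusted p is at most 0.01. *Ccr6*, *Ccr8* and *Ccr7* lie below 0 and the remaining 11 lie above, from 0.51 for *Ccr9* to 3.70 for *Ccr10*.

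*Ccr2*, *Ccr4*, *Ccr8*, *Ccr9* and *Cxcr6* lie on chromosome 9, where *Ccr9*, *Cxcr6* and *Ccr2* form a cluster with other receptor genes. Of 16 genes listed for this neighbourhood 9 were tested, and *Cxcr6* and *Ccr2* rose, against 2.42% of all genes tested. None fell in edgeR or DESeq2, and 1.5% of all genes tested fell in edgeR. *Ccr4* and *Ccr8*, which lie between *Ccrl2* and the cluster, were not on this list, and *Ccr4* rose and *Ccr8* fell. At an unadjusted edgeR p under 0.05, which 23% of all genes tested reached in either direction, 0 of the 9 were lower and 5 were higher. These 5 were the receptor genes *Ccr9*, *Cxcr6*, *Xcr1*, *Ccr2* and *Ccrl2*. *Ccr2* lies 298.6 kb from *Cxcr6* between gene midpoints. *Xcr1*, at 48.1 kb, had 18, 15 and 19 counts in WT against 38 and 35 in *Tet2/3* DKO (log2 fold change 1.47 ± 0.36 SE, edgeR adjusted p = 0.0341). *Fyco1*, which encloses *Cxcr6*, had a log2 fold change of 0.37 ± 0.18 SE (edgeR adjusted p = 0.266) and overlapped between the groups. It was 0.02 without *Tet2/3* DKO replicate 1 and passed the threshold without replicate 2 (0.62, edgeR adjusted p = 0.00951). On the other side, *Lztfl1*, *Sacm1l* and *Limd1* had log2 fold changes of 0.09, 0.19 and -0.22 with edgeR adjusted p-values of 0.859, 0.631 and 0.342, and *Lztfl1* and *Sacm1l* changed sign with single libraries left out. *Ccrl2*, also on the list, lies on the same chromosome outside the cluster, with its midpoint at -12753.1 kb from that of *Cxcr6*.

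**Figure D5:**
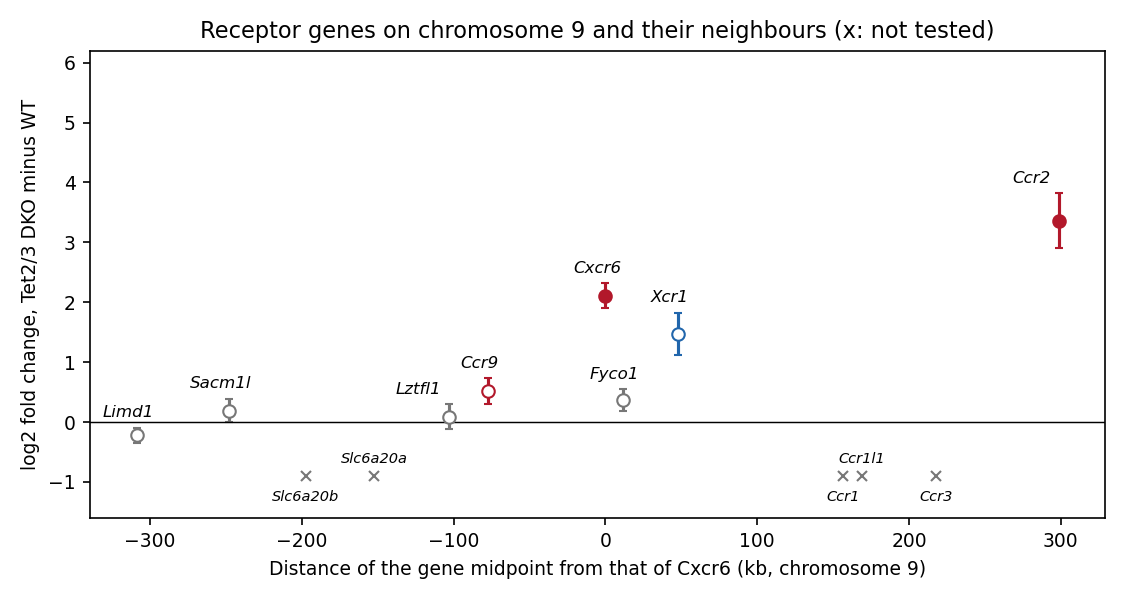
Log2 fold change (*Tet2/3* DKO minus WT) with its standard error against the distance of each gene's midpoint from that of *Cxcr6* in kb, for genes of the chromosome 9 receptor cluster and its flank, with the receptors described here in red, other receptors in blue and other genes in grey. *Cxcr6* and *Ccr2* are filled (adjusted p at most 0.01), the flanking genes to the left lie near 0, and crosses mark genes that were not tested.

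Most genes for the ligands of the 8 receptors were low in the sorted cells, and *Ccl25* was the highest of them, with a mean of 13.4 CPM in WT. Of 15 ligand genes 6 were tested and none passed the threshold of 0.01 in edgeR, 3 had an unadjusted p under 0.05 (23% of all genes tested did), and DESeq2 called 1, *Cxcl10*. At the same time *Ccl19*, *Ccl21a* and *Cxcl11* had no count in any library. *Cxcl10*, a ligand of CXCR3, had 31, 23 and 21 counts in WT against 147 and 50 in *Tet2/3* DKO (log2 fold change 2.36 ± 0.45 SE, edgeR adjusted p = 0.0121), with 1.51 without *Tet2/3* DKO replicate 1 (edgeR adjusted p = 0.0234) and 2.83 without replicate 2 (edgeR adjusted p = 1.6e-05). *Ccl8*, a ligand of CCR8, had 3, 0 and 0 counts in WT against 15 and 9 in *Tet2/3* DKO, and *Ccl22*, a ligand of CCR4, had 21, 14 and 5 counts in WT against 0 and 2. *Ccl25*, the ligand of CCR9, had 333, 345 and 351 counts in WT against 279 and 190 in *Tet2/3* DKO (log2 fold change -0.15, edgeR adjusted p = 0.663). The 5 markers of thymic epithelium, the main source of CCL25, summed to 10.6 to 13.3 CPM in WT and to 10.7 and 34 CPM in *Tet2/3* DKO, and none of the 3 that were tested passed the threshold in edgeR or DESeq2, although all 3 had an unadjusted p under 0.05 in edgeR. The sum was mostly *Epcam*, at 33.8 CPM in *Tet2/3* DKO replicate 2 and 8.24 to 10.8 CPM in the other 4 libraries. *Krt8* and *Psmb11* were at lower levels in both *Tet2/3* DKO libraries than in WT, with means of 1.23 and 0.207 CPM for *Krt8* and 1.03 and 0.0238 CPM for *Psmb11* in WT and *Tet2/3* DKO.

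The machinery below the receptors was measured with lists of G protein signalling and of desensitization. Of 20 signalling genes 19 were tested and 1 fell, against 1.5% of all genes tested, with a median log2 fold change of -0.16. At an unadjusted p under 0.05, which 23% of all genes tested reached, 8 of the 19 differed and 7 of these were lower. This was *Gnai2*, the inhibitory G protein subunit used by chemokine receptors in lymphocytes, which stood at 1473, 1497 and 1473 CPM in WT and at 1137 and 1017 CPM in *Tet2/3* DKO (log2 fold change -0.46 ± 0.083 SE, edgeR adjusted p = 0.00891). It lay near the threshold, with an adjusted p of 0.0564, 0.0525 and 0.0482 without WT replicate 1, 2 and 3 and 0.0138 with upper quartile scaling.

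Of 14 desensitization genes 12 were tested, of which 1 rose and 3 fell, against 2.42% and 1.5% of all genes tested, and DESeq2 called *Grk6* in addition. *Rgs1*, a regulator that shortens G protein signalling downstream of chemokine receptors, had 1764, 1579 and 1875 counts in WT against 9261 and 2549 in *Tet2/3* DKO. The increase was much larger in *Tet2/3* DKO replicate 1 than in replicate 2 (log2 fold change 2.11 ± 0.35 SE, edgeR adjusted p = 0.00616). The log2 fold change was 1.07 without replicate 1 and 2.69 without replicate 2, and the adjusted p was 0.0354, 0.0615 and 0.0557 without WT replicate 1, 2 and 3 and 0.148 with robust moderation. *Arrb2*, which encodes beta-arrestin, *Rgs10* and *Rgs14* fell by 0.58, 0.91 and 0.50 on the log2 scale, with edgeR adjusted p-values of 0.00437, 0.00588 and 0.00692. The adjusted p of these 3 rose to 0.0356, 0.0429 and 0.0531 at most when a WT library was left out.

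Thymic egress depends on a different G protein-coupled receptor, S1PR1, and a list of 4 genes of egress was read beside *Ccr7*. *S1pr1* fell, from 837.3, 817.4 and 707.6 CPM in WT to 524.2 and 484.2 CPM in *Tet2/3* DKO (log2 fold change -0.64 ± 0.098 SE, edgeR adjusted p = 0.00394, and 0.0312, 0.0336 and 0.0118 without WT replicate 1, 2 and 3). *Klf2*, the factor that activates *S1pr1*, had a log2 fold change of -0.64 (edgeR adjusted p = 0.0127), and *Cd69*, whose product removes S1PR1 from the surface, had 1.20 (edgeR adjusted p = 0.0131). Neither passed the threshold, nor did *Foxo1*, so 1 of the 4 genes was called lower, against 1.5% of all genes tested. DESeq2 called *Klf2* as well as *S1pr1*. Without *Tet2/3* DKO replicate 1 the log2 fold changes of *Klf2* and *Cd69* were -0.86 and 0.57, and leaving out replicate 2 gave -0.46 and 1.62. All 4 passed the threshold, but they rest on 1 *Tet2/3* DKO library with its spread assumed from WT. *Cd69* was at 724.2 CPM in *Tet2/3* DKO replicate 1 and 347.8 CPM in replicate 2, against 228.8 to 239.3 CPM in WT.

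For each receptor that changed, the genes with the most similar profile were found by the distance between log2 CPM centred over the 5 libraries. These neighbours were picked by their values, so no test is attached. *Nkg7* was among the 3 nearest to *Cxcr3* (distance 0.37), with *Baiap3* (0.328) and *Tpbgl* (0.425). The nearest to *Cxcr6* were *Rps4l* (0.168), *Slc9a7* (0.251) and *Mcts2* (0.336). The nearest to *Ccr2* were *Slc2a6* (0.364), *Tox2* (0.396) and *Casp4* (0.426), and to *Ccr4* they were *Fcrl1* (0.212), *Gm29395* (0.214) and *Gm14085* (0.215). *Srsf12* (0.06), *5430400D12Rik* (0.069) and *Trbv2* (0.075) were nearest to *Ccr7*, and *Btbd8* (0.087), *Cabcoco1* (0.105) and *Arhgef33* (0.113) to *Ccr8*. No other of the 8 receptors was among the 3 nearest to any of these 6.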

How the data were processed

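RNA of sorted CD4 SP thymocytes of 3 WT and 2 *Tet2/3* DKO mice was used. The authors prepared SMART-seq v4 libraries, trimmed reads with fastp 0.21.0, aligned them to mm10 with STAR 2.7.5a, used the GRCm38.100 annotation, and deposited gene counts for each library without normalization or pooling. Clonotype tables of the same libraries were not used. The 4 summary lines for unassigned reads were left out (unmapped reads were 2.69% to 3.39%, multimapping reads 7.88% to 8.20%, reads without a feature 3.51% to 5.70% and ambiguous reads 6.47% to 6.73% of each library's total over genes and these lines). Symbols, coordinates and exon lengths were taken from GENCODE M21 (55141 of 55487 identifiers matched), and promoters from RefSeq.

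Unstranded counts were tested with edgeR 4.0.16 in R 4.3.3 (quasi-likelihood F test, newer dispersion moderation, TMM scaling, filterByExpr with a minimum count of 10 and Benjamini-Hochberg adjustment over all genes tested, threshold 0.01). The SE of a log2 fold change is its size divided by the square root of F. CPM use TMM-scaled library sizes. Replicates are separate mice, and the p-values with 2 *Tet2/3* DKO libraries rest on few degrees of freedom. The model was tested on simulated counts. Alternatives changed the scaling, filter, moderation, strand column, tool (DESeq2 1.42.0), threshold, replicate block or libraries, and the exon length behind RPKM, the last chosen after seeing the data, as was running these alternatives for genes other than the 8.

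The 8 receptors and all gene lists were chosen with earlier results of these data known. Named genes are the 8, the targeted and sex-linked genes, up to 6 genes past the threshold per list by smallest p, all tested genes of the chromosome 9 list, and 3 nearest profiles per changed receptor. Other genes with values (*Ccl8*, *Ccl22*, *Grk6*, *Cd79a*, *Il2rb*, *Tbx21*, *Cd8a*, *Tnfrsf4*, *Tnfrsf18*, *Il2ra*, *Ctla4*, *Ikzf2*, *Epcam*, *Krt8*, *Psmb11*, *Lyz2*, *Csf1r*, *Cd68*, *Itgam*, *Cxcl10*, *Ccl25*, *Cxcr5*, *Cx3cr1*, *Ccr1*, *Klf2*, *Cd69* and *Foxo1*) were named after their values were seen. Some genes are not reported here.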

Additional observations from a re-analysis of the deposited data

How the results depend on the processing

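None of the 8 receptors changed sign under any of the 14 alternatives run for each, and *Cxcr3* and *Cxcr6* stayed past the threshold in all of them. Of the 8 receptors, 2 to 7 were called with single libraries left out, and 110 to 1311 of all genes. The low ends came without a WT library (152, 110 and 127 genes without WT replicate 1, 2 and 3, with *Cxcr3* and *Cxcr6* called each time). DESeq2 called 1027 genes and a threshold of 0.05 called 1173, and both called the same 6 receptors. With robust moderation *Ccr2* was lost (adjusted p = 0.0674). Replicate numbers 1 and 2 are shared by the genotypes but name different mice, and deviations from the group means of same-numbered libraries were hardly correlated over genes (r = 0.015 and 0.004). With the replicate block 358 genes and 7 receptors were called, *Ccr9* being added (log2 fold change 0.82, edgeR adjusted p = 0.00898). With single libraries left out, the log2 fold change of *Lztfl1* changed sign, with a range of -0.088 to 0.332, as did that of *Sacm1l*, with a range of -0.152 to 0.473, and neither passed the threshold. Receptors with few reads carry more counting error, and *Cxcr4* had 27 to 97 counts per library. The causes of these changes were not tested.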

Other observations

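Markers of B cells, 6 genes fixed as a list, summed to 551.2 to 640.6 CPM in WT and 1027 and 1229 CPM in *Tet2/3* DKO. *Ighm*, the constant region of the mu heavy chain, took most of these reads and rose from 592.4 ± 45.3 CPM (SD, n = 3) to 1119 ± 143.1 CPM (SD, n = 2), a log2 difference of 0.92 (edgeR adjusted p = 0.000949, and 0.0142 at most with one WT library left out). Of the 3 genes of the list that were tested it was the one that passed, and 2.42% of all genes tested were called higher. *Cd79a*, a chain of the B cell receptor complex, was at 1.74 to 3.17 CPM in WT and 1.53 and 1.40 CPM in *Tet2/3* DKO (log2 fold change -0.67, edgeR adjusted p = 0.366).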
